A study of Rattus norvegicus with 82 samples.

Results

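The genes described here are 3 ubiquitin ligases of striated muscle (Trim63, Fbxo32 and Fbxl22), the deubiquitinase Otud1, the polyubiquitin gene Ubb and the transcription factors Foxo1 and Foxo3, measured in rat hearts after 1 dose of a drug that binds tubulin. The 7 genes were listed with earlier results of these arrays known, and 6 of them were found by symbol among the 14218 genes to which the array's probe annotation gives a single symbol. Ubb was not among those symbols and is not analysed here. Where several probe sets named 1 gene, the set with the highest mean intensity over all 82 arrays stood for it. That mean, which is the measured value the choice used, was 479.8 for Trim63, 55.8 for Fbxo32, 1049.6 for Fbxl22, 1675 for Otud1, 234 for Foxo1 and 911 for Foxo3. These means are not compared between genes, since each probe set has its own brightness per transcript.

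Muscle proteins are marked for the proteasome by chains of ubiquitin, which ligases attach and deubiquitinases remove. Trim63 encodes MuRF1, a RING finger ligase of the sarcomere, and Fbxo32 encodes atrogin-1, the substrate receptor of a ligase complex built on Skp1 and a cullin; both are the textbook markers of muscle wasting. FoxO transcription factors, which the kinase Akt holds out of the nucleus, switch both genes on in skeletal muscle and heart. Fbxl22 is another substrate receptor of that complex, placed at the Z-disc of cardiomyocytes by work in mouse and zebrafish, and Otud1 is an ovarian tumour (OTU) domain protease that cleaves ubiquitin chains.

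Male Wistar rats of the Crl:Wi(Han) stock were given vinblastine (0.5 or 3 mg/kg), vincristine (0.1 or 1 mg/kg), colchicine (0.2 or 2 mg/kg) or the saline vehicle alone into a vein, and RNA of the heart was hybridised 6 or 24 h later. Each of the 14 groups held 6 arrays, 1 per rat as the labels number them, except both groups of vincristine 0.1 mg/kg, which held 5 arrays here. The vehicle animals shared the strain, the route and the times with the treated ones. Ages are not stated in the labels. The doses were not matched between compounds, so values of different compounds are set side by side and not tested against each other.

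The deposited values were linear probe set intensities whose array medians lay between 57.5 and 63.2, and the number of arrays limits the precision. All 14 measured cardiomyocyte markers stood among the brightest 10% of genes, and of 21 measured skeletal muscle markers 11 passed the filter for testing. Of these 21 the fast myosin Myh1 and Acta1, the skeletal alpha-actin, were among the brightest 10%, while the fast myosins Myh2 and Myh4 were above the filter on 0 arrays. On 10 arrays the whole profile was more than 1.3 times as far from its own group's median profile as from another group's (root mean square of log2 values), and 33 more lay nearer another group by a smaller ratio. The arrays labelled vinblastine 0.5 mg/kg 6 h replicate 6 and vinblastine 0.5 mg/kg 24 h replicate 5 lay nearest the colchicine 2 mg/kg 6 h group, and colchicine 0.2 mg/kg 24 h replicate 6 lay nearest vincristine 1 mg/kg 6 h. In the opposite sense, the array labelled colchicine 2 mg/kg 6 h replicate 4 lay nearest vinblastine 0.5 mg/kg 24 h, colchicine 2 mg/kg 24 h replicate 1 nearest colchicine 0.2 mg/kg 24 h, and vincristine 1 mg/kg 6 h replicate 3 nearest saline 24 h. The other 4 were vinblastine 3 mg/kg 6 h replicate 1, vincristine 0.1 mg/kg 24 h replicate 5, and colchicine 0.2 mg/kg 6 h replicates 1 and 6. Whether labels were exchanged between arrays was not tested, and all groups follow the labels as given. The changes of the 6 genes at the higher doses are given with and without these arrays, and the marker sums, list counts and correlations without them where they moved most. The arrays were picked on the whole profile, so the smaller errors of the remaining 72 arrays follow in part from that choice.

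Log2 changes below are on the scale log2(intensity + 16), which understates the change of dim genes, and come from limma's moderated test on the means of all 14 groups, with Benjamini-Hochberg adjustment over the 11324 genes tested in each comparison and a threshold of 0.05. All 6 genes passed the filter for testing. A gene was tested where at least 5 arrays read it above their own 40th percentile. At 6 h after vinblastine 3 mg/kg 3 of the 6 genes were higher than in saline (Otud1, Foxo3 and Trim63), where 23.3% of all genes tested passed the threshold; the rise of Otud1 in this group was among the results known when the genes were listed. At 24 h after vinblastine 3 mg/kg Foxo3 alone of the 6 was higher, against 9.55% of all genes. Vincristine 1 mg/kg raised Otud1 at 6 h (3.3% of all genes called), and at 24 h Foxo3 was higher and Fbxl22 lower (30.4% of all genes). Colchicine 2 mg/kg raised Otud1, Foxo3 and Trim63 at 6 h (9.26% of all genes), and at 24 h Otud1 and Foxo3 were higher and Fbxl22 lower (44.6% of all genes). In heart tissue as a whole, fewer cells of a type and less RNA per cell cannot be told apart.

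The lower doses moved none of the 6 genes past the threshold at either time. The share of all genes called was 0.0353% for vinblastine 0.5 mg/kg at 6 h, 0.274% for colchicine 0.2 mg/kg at 6 h and 0% for the other 4 comparisons at a lower dose. Without adjustment 4 of these 36 limma tests had p under 0.05: Foxo3 and Trim63 at 6 h and Fbxo32 at 24 h after vinblastine 0.5 mg/kg, and Foxo3 at 24 h after colchicine 0.2 mg/kg. The 36 log2 changes ran from -0.30 to 0.78. None of 846 refits of these values under other settings, or with 1 array left out, passed the threshold.

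Without the 10 arrays set apart, the genes called against saline at 6 h were Otud1, Foxo3 and Trim63 after vinblastine 3 mg/kg, vincristine 1 mg/kg and colchicine 2 mg/kg alike, where 15.8%, 12.3% and 19.3% of all genes were called. The 24 h calls were Foxo3 after vinblastine 3 mg/kg, and Otud1, Foxo3 and, lower, Fbxl22 after vincristine 1 mg/kg and colchicine 2 mg/kg (15.8%, 34.9% and 50.5% of all genes). None of the 6 was called at a lower dose, where the share of all genes was at most 0.0883% after vinblastine 0.5 mg/kg, 0.00883% after vincristine 0.1 mg/kg and 1.47% at 6 h and 0.0265% at 24 h after colchicine 0.2 mg/kg. Between doses, the calls at 6 h were Otud1 and Foxo3 for vinblastine (9.66% of all genes), Otud1 and Trim63 for vincristine (11.3%) and Otud1, Foxo3 and Trim63 for colchicine (15.2%). At 24 h they were Foxo3 for vinblastine (11.1%), Otud1, Foxo3 and, lower, Fbxl22 for vincristine (27.3%), and 5 of 6 for colchicine (48.9%). Those 5 were Otud1 (2.04), Foxo1 (0.47) and Foxo3 (0.29), higher at 2 than at 0.2 mg/kg, and Fbxl22 (-3.03) and Trim63 (-0.31), lower. The 24 h change was below the 6 h change for Otud1 and Trim63 after vinblastine 3 mg/kg (8.15% of all genes), and for these and Fbxl22 after vincristine 1 mg/kg (15.8%) and colchicine 2 mg/kg (28.2%). The lower doses had no call in this time comparison (0.053%, 0% and 0.548% of all genes for vinblastine, vincristine and colchicine; 0%, 0% and 0.0265% with all arrays), nor had saline at 24 h against 6 h (0.0795%).

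Otud1 read between 279.6 and 8078 over the 82 arrays. At 6 h after vinblastine 3 mg/kg the lowest, median and highest of the 6 hearts read 2284, 3396 and 4731, against 312, 483 and 644 in saline hearts. The groups did not overlap, where 4.84% of all genes were higher without overlap. The mean of 3368 ± 897 stood against 473 ± 120 in saline hearts (SD, n = 6 each), a log2 change of 2.78 ± 0.57 (SE), and 2.89 ± 0.21 without the arrays set apart. After vincristine 1 mg/kg at 6 h the 6 hearts ran from 447 over a median of 3526 to 8078. In this group 5 of them were above every saline heart and the array set apart, replicate 3, lay within the saline range. The log2 change was 2.52 ± 0.57 (limma, adjusted p = 0.0114), and 3.03 ± 0.21 without the arrays set apart (adjusted p = 3.46e-18). After colchicine 2 mg/kg at 6 h 5 hearts read between 5716 and 7229, and replicate 4, the array set apart, read 325. The log2 change was 3.06 ± 0.57 (limma, adjusted p = 0.000215), and 3.77 ± 0.21 without the arrays set apart, which is a 13.7-fold difference.

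With all arrays, the 24 h change of Otud1 passed the threshold after colchicine 2 mg/kg and not after the higher doses of the other compounds; the difference between compounds was not tested, since their doses differ. After colchicine 2 mg/kg the 6 hearts read 492, 1962 and 2624 at the lowest, median and highest, against 402, 492 and 577 in saline hearts. The low value is replicate 1, set apart, and the other 5 were all above saline. The log2 change was 1.73 ± 0.57 (limma, adjusted p = 0.00938), and 2.07 ± 0.21 without the arrays set apart. After vincristine 1 mg/kg all 6 hearts, from 721 over a median of 889.9 to 1539.55, lay above all saline hearts, where 8.33% of all genes were higher without overlap. The change of 0.98 ± 0.57 did not pass the threshold with all arrays (limma, adjusted p = 0.194) and passed it without the arrays set apart, at the same size (0.98 ± 0.20, adjusted p = 4.28e-05). After vinblastine 3 mg/kg the hearts read between 414 and 753 and overlapped saline hearts, with a log2 change of 0.12 ± 0.57 (limma, adjusted p = 0.941, 95% interval -1.01 to 1.25). With all arrays the SE rests on 1 spread of Otud1 pooled over all 14 groups. At 24 h the SD of log2 values was 0.36 after vinblastine 3 mg/kg, 0.39 after vincristine 1 mg/kg and 0.16 in saline hearts. It was 1.60 in colchicine 0.2 mg/kg 24 h and 1.74 in colchicine 2 mg/kg 6 h, which hold arrays set apart.

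**Figure D1:**
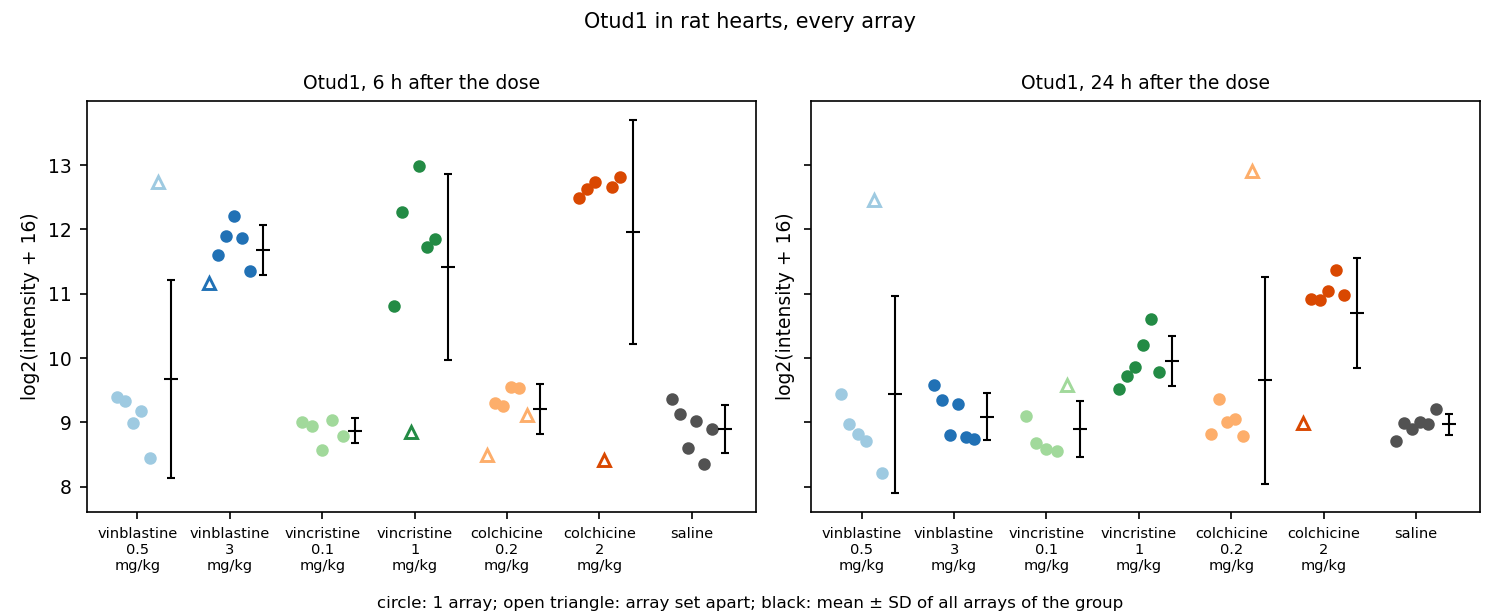
Otud1 on each array as log2(intensity + 16), at 6 h (left) and 24 h (right), by group; circles are arrays, open triangles are the arrays set apart, and black marks give the mean ± SD of the group. At 6 h the higher doses sit above the saline arrays except for open triangles of vincristine 1 mg/kg and colchicine 2 mg/kg, and 1 open triangle in each of vinblastine 0.5 mg/kg 6 h, vinblastine 0.5 mg/kg 24 h and colchicine 0.2 mg/kg 24 h sits far above its group.

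In 3 of the lower dose groups 1 array held most of the spread of Otud1. In the vinblastine 0.5 mg/kg groups the highest heart read 5627 at 24 h and 6844 at 6 h while the other 5 of each group read between 279.6 and 677 and between 334 and 654. At 24 h after colchicine 0.2 mg/kg 1 heart read 7642 and the other 5 between 426.5 and 643. These 3 arrays are among those set apart. With all arrays the changes against saline were 0.47 ± 0.57 at 24 h and 0.78 ± 0.57 at 6 h after vinblastine 0.5 mg/kg, and 0.69 ± 0.57 at 24 h after colchicine 0.2 mg/kg. None passed the threshold. Without the arrays set apart the values were -0.14 ± 0.21 at 24 h and 0.17 ± 0.21 at 6 h after vinblastine 0.5 mg/kg, the first with its sign changed, and 0.036 ± 0.21 at 24 h after colchicine 0.2 mg/kg.

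The 24 h change of Otud1 was set against its 6 h change within each compound. For vinblastine 3 mg/kg the difference was -2.67 ± 0.80, given as a description since it holds the 6 h group known beforehand (4.43% of all genes called). On the 72 remaining arrays it was -2.77 ± 0.29. It stayed past the threshold in 10 of 24 fits that left out 1 array and in 10 of 12 other settings. The differences of -1.54 ± 0.80 for vincristine 1 mg/kg and -1.33 ± 0.80 for colchicine 2 mg/kg did not pass the threshold with all arrays (limma, adjusted p = 0.216 and 0.266); without the arrays set apart they were -2.05 ± 0.29 and -1.70 ± 0.29 and passed. The higher dose exceeded the lower at 6 h by 2.54 ± 0.60 for vincristine and 2.75 ± 0.57 for colchicine (limma, adjusted p = 0.0115 and 0.000577; 2.81% and 9.23% of all genes called), and by 2.00 ± 0.57 for vinblastine as a description (8.52% of all genes called). With the set-apart arrays left out, these dose differences were 3.06 ± 0.22 for vincristine, 3.26 ± 0.23 for colchicine and 2.72 ± 0.22 for vinblastine. Without vincristine 1 mg/kg 6 h replicate 4 the changes of that group against saline (2.21, adjusted p = 0.0661) and against 0.1 mg/kg (2.23, adjusted p = 0.0610) did not pass. Ordered by group mean, colchicine 2 mg/kg 6 h came first at 5489.5 ± 2580.4, followed by vincristine 1 mg/kg 6 h and vinblastine 3 mg/kg 6 h. A gap larger than the larger SD of the neighbours was seen after the third of these and between vincristine 1 mg/kg 24 h and colchicine 0.2 mg/kg 6 h. Over the other 72 arrays another such gap lay between colchicine 2 mg/kg 24 h (2108 ± 298) and vincristine 1 mg/kg 24 h (1006 ± 301).

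Fbxl22 fell in 2 groups. At 24 h after colchicine 2 mg/kg 5 hearts read between 117 and 216 and replicate 1, the array set apart, read 1238, against 1162, 1383 and 1838 at the lowest, median and highest in saline hearts. The log2 change was -2.59 ± 0.27 (limma, adjusted p = 2.23e-11), and -3.07 ± 0.19 without the arrays set apart, which is 8.41-fold lower. At 24 h after vincristine 1 mg/kg the hearts read 301, 431 and 722, with no overlap with saline hearts, where 11.8% of all genes were lower without overlap. The mean of 481 ± 170.0 stood against 1437 ± 263 in saline hearts (SD, n = 6 each), and the log2 change was -1.60 ± 0.27 (limma, adjusted p = 4.47e-06). At 24 h after vinblastine 3 mg/kg the hearts read between 805 and 1481, and the change of -0.20 ± 0.27 did not pass the threshold (adjusted p = 0.736; 95% interval -0.75 to 0.34).

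**Figure D2:**
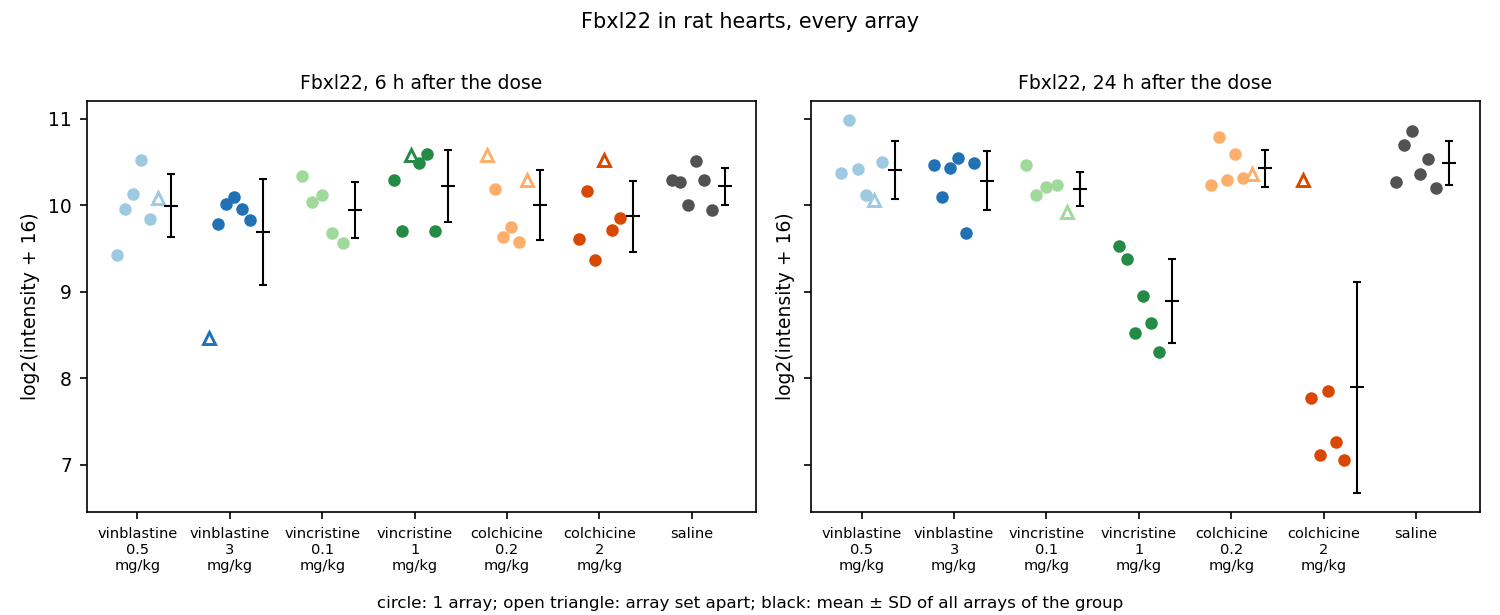
Fbxl22 on each array as log2(intensity + 16), at 6 h (left) and 24 h (right), by group, with the symbols as for Otud1. At 24 h all 6 arrays of vincristine 1 mg/kg and 5 of the 6 of colchicine 2 mg/kg sit below the saline arrays, and the open triangle of colchicine 2 mg/kg sits among them.

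At 6 h no change of Fbxl22 passed the threshold with all arrays. After colchicine 2 mg/kg it read 646, 864 and 1451, after vincristine 1 mg/kg 815, 1325 and 1520, and after vinblastine 3 mg/kg 338, 936 and 1076, against 971, 1224 and 1445 in saline hearts. All 3 groups overlapped saline hearts, and their log2 changes of -0.35, 0.01 and -0.53 did not pass the threshold (SE 0.27 each). Without the arrays set apart they were -0.48, -0.07 and -0.28 (SE 0.19 each) and did not pass either. The change after colchicine 2 mg/kg passed in 1 of 12 other settings (limma, adjusted p = 0.0313) and in 0 of 12 fits that left out 1 array. The 24 h change was below the 6 h change by 2.25 ± 0.39 for colchicine 2 mg/kg and by 1.60 ± 0.39 for vincristine 1 mg/kg (log2 differences of -2.25 and -1.60; limma, adjusted p = 3.49e-05 and 0.00306, where 18.9% and 12.3% of all genes passed). The higher dose was below the lower dose at 24 h, with log2 differences of -2.53 ± 0.27 for colchicine and -1.30 ± 0.29 for vincristine (limma, adjusted p = 6.06e-11 and 0.000409; 41.4% and 23.9% of all genes called). On the 72 remaining arrays the time differences were -2.60 for colchicine and -1.53 for vincristine, and the dose differences -3.03 and -1.37, all past the threshold. In the order of group means saline 24 h came first at 1437, and with all arrays the only gap larger than the larger SD of its neighbours lay between vinblastine 3 mg/kg 6 h (861 ± 268) and vincristine 1 mg/kg 24 h (481 ± 170.0). With the set-apart arrays left out, 2 such gaps lay on either side of vincristine 1 mg/kg 24 h, above which came colchicine 2 mg/kg 6 h (854 ± 181) and below it colchicine 2 mg/kg 24 h (159 ± 46.4).

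Trim63 was higher than in saline at 6 h after colchicine 2 mg/kg and vinblastine 3 mg/kg. After colchicine 2 mg/kg the hearts read 350.0, 711 and 773, against 312, 427 and 531 in saline hearts, and the log2 change was 0.56 ± 0.17 (limma, adjusted p = 0.0203). After vinblastine 3 mg/kg they read 294, 621 and 741, and the change was 0.43 ± 0.17 (adjusted p = 0.0488). After vincristine 1 mg/kg they read 373, 648 and 806, and the change of 0.53 ± 0.17 did not pass the threshold (adjusted p = 0.0573). In each of these groups 1 array read below the saline median, and it was the array set apart. Without those arrays the 3 changes were 0.72, 0.62 and 0.67 (SE 0.12 each; limma, adjusted p = 2.65e-06, 6.32e-05 and 2.44e-05), and neither the colchicine nor the vinblastine group overlapped saline hearts, where 5.91% and 5.51% of all genes were higher without overlap on the same arrays. With all arrays the call after vinblastine 3 mg/kg held in 3 of 12 fits that left out 1 array and in 7 of 12 other settings, and the call after colchicine 2 mg/kg in 7 of 12 and 11 of 12.

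At 24 h no change of Trim63 against saline passed the threshold. The group means were 370.2 ± 45.1 after vinblastine 3 mg/kg, 400.0 ± 61.7 after vincristine 1 mg/kg and 386 ± 72.1 after colchicine 2 mg/kg, against 437 ± 38.2 in saline hearts, with changes of -0.23, -0.13 and -0.19 that did not pass the threshold (-0.23 for colchicine without the arrays set apart). For colchicine 2 mg/kg the 24 h change was below the 6 h change, at -0.74 ± 0.23 (limma, adjusted p = 0.0175; 18.9% of all genes called), and -0.95 ± 0.17 without the arrays set apart. Without colchicine 2 mg/kg 24 h replicate 3 it was -0.65 and did not pass (adjusted p = 0.0531). Over the other 72 arrays the like differences of vinblastine 3 mg/kg (-0.85 ± 0.16) and vincristine 1 mg/kg (-0.80 ± 0.16) passed as well. Colchicine 2 mg/kg exceeded 0.2 mg/kg at 6 h by 0.52 ± 0.17 (limma, adjusted p = 0.0340), a call that held in 4 of 12 fits that left out 1 array (0.67 ± 0.13 without the arrays set apart).

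The stretch before the Trim63 gene is shown because FoxO factors and the glucocorticoid receptor are known to act there; the stretch of Fbxl22, the one of the 6 genes called lower than saline, is shown beside it. RefSeq promoters of build GRCr8 were at hand for 3 of the 6 genes and run from 250 bases before to 50 bases after the start of the gene. The letters GTAAACA and ATAAACA (FoxO) and the letters GNACA and TGTNC set 3 bases apart (glucocorticoid receptor) were searched on both strands. Capitals mark every match.
Trim63, chr5:151816986-151817285, plus strand: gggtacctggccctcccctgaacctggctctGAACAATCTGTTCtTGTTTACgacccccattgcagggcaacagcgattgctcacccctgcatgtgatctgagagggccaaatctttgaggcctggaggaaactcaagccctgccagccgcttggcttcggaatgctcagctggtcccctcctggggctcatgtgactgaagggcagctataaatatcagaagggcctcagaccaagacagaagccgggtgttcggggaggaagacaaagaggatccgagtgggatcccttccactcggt
Fbxl22, chr8:75971665-75971964, minus strand: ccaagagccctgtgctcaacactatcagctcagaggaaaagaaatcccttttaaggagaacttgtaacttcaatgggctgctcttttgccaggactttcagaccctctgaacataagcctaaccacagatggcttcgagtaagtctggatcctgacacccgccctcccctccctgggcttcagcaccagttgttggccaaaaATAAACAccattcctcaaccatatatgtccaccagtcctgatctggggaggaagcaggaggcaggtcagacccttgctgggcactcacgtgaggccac
The Trim63 stretch held the receptor letters at -219 to -207 and GTAAACA, read on the other strand, at -205 to -199, with no overlap between them. The Fbxl22 stretch held ATAAACA at -48 to -42, and the Foxo1 stretch held none of the 3. Of 33469 RefSeq promoters of this length 8.09% held 1 of the FoxO letters, 0.439% the receptor letters and 0.0478% both kinds. A match describes letters and not a site of binding.

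Foxo3 was higher after the higher doses at both times, except at 6 h after vincristine 1 mg/kg with all arrays. At 6 h after vinblastine 3 mg/kg it read 888, 1203 and 1259, above all saline hearts (569, 752 and 849), with a log2 change of 0.64 ± 0.13 (limma, adjusted p = 0.000224); groups that did not overlap with the treated one higher made up 4.84% of all genes. At 6 h after colchicine 2 mg/kg it read 773, 1266 and 1374, where the low array is the one set apart, and the change was 0.68 ± 0.13 (adjusted p = 0.000312). For vincristine 1 mg/kg at 6 h the change of 0.32 ± 0.13 did not pass the threshold (adjusted p = 0.164). Without the arrays set apart it was 0.38 ± 0.11 (adjusted p = 0.0157), beside 0.71 ± 0.11 for vinblastine and 0.80 ± 0.11 for colchicine. At 24 h the changes were 0.63 ± 0.13 after vinblastine 3 mg/kg, 0.43 ± 0.13 after vincristine 1 mg/kg and 0.43 ± 0.13 after colchicine 2 mg/kg (limma, adjusted p = 0.00047, 0.00817 and 0.0045). All 6 hearts of vincristine 1 mg/kg (919 to 1009.8) and of colchicine 2 mg/kg (828 to 1287) lay above the saline hearts (573 to 817), where 8.33% and 4.12% of all genes were higher without overlap, and 5 of 6 hearts did after vinblastine 3 mg/kg, from 786 to 1567. On the 72 remaining arrays the 24 h value of colchicine was 0.48 ± 0.11. The 24 h change of Foxo3 did not differ from its 6 h change past the threshold for any compound (differences from -0.25 to 0.11, SE 0.18 each; -0.32 to 0.05 without the arrays set apart). The higher dose exceeded the lower for colchicine at 6 h (0.63 ± 0.13), vinblastine at 24 h (0.54 ± 0.13) and vincristine at 24 h (0.37 ± 0.14; limma, adjusted p = 0.00058, 0.00471 and 0.0382; 5.48% of all genes called for vinblastine at 24 h), the last in 3 of 11 fits that left out 1 array. With the set-apart arrays left out, these were 0.73, 0.63 and 0.37 (SE 0.12, 0.11 and 0.12). Of 3 probe sets that name Foxo3 the other two were never above the filter, so these values rest on 1 probe set.

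**Figure D3:**
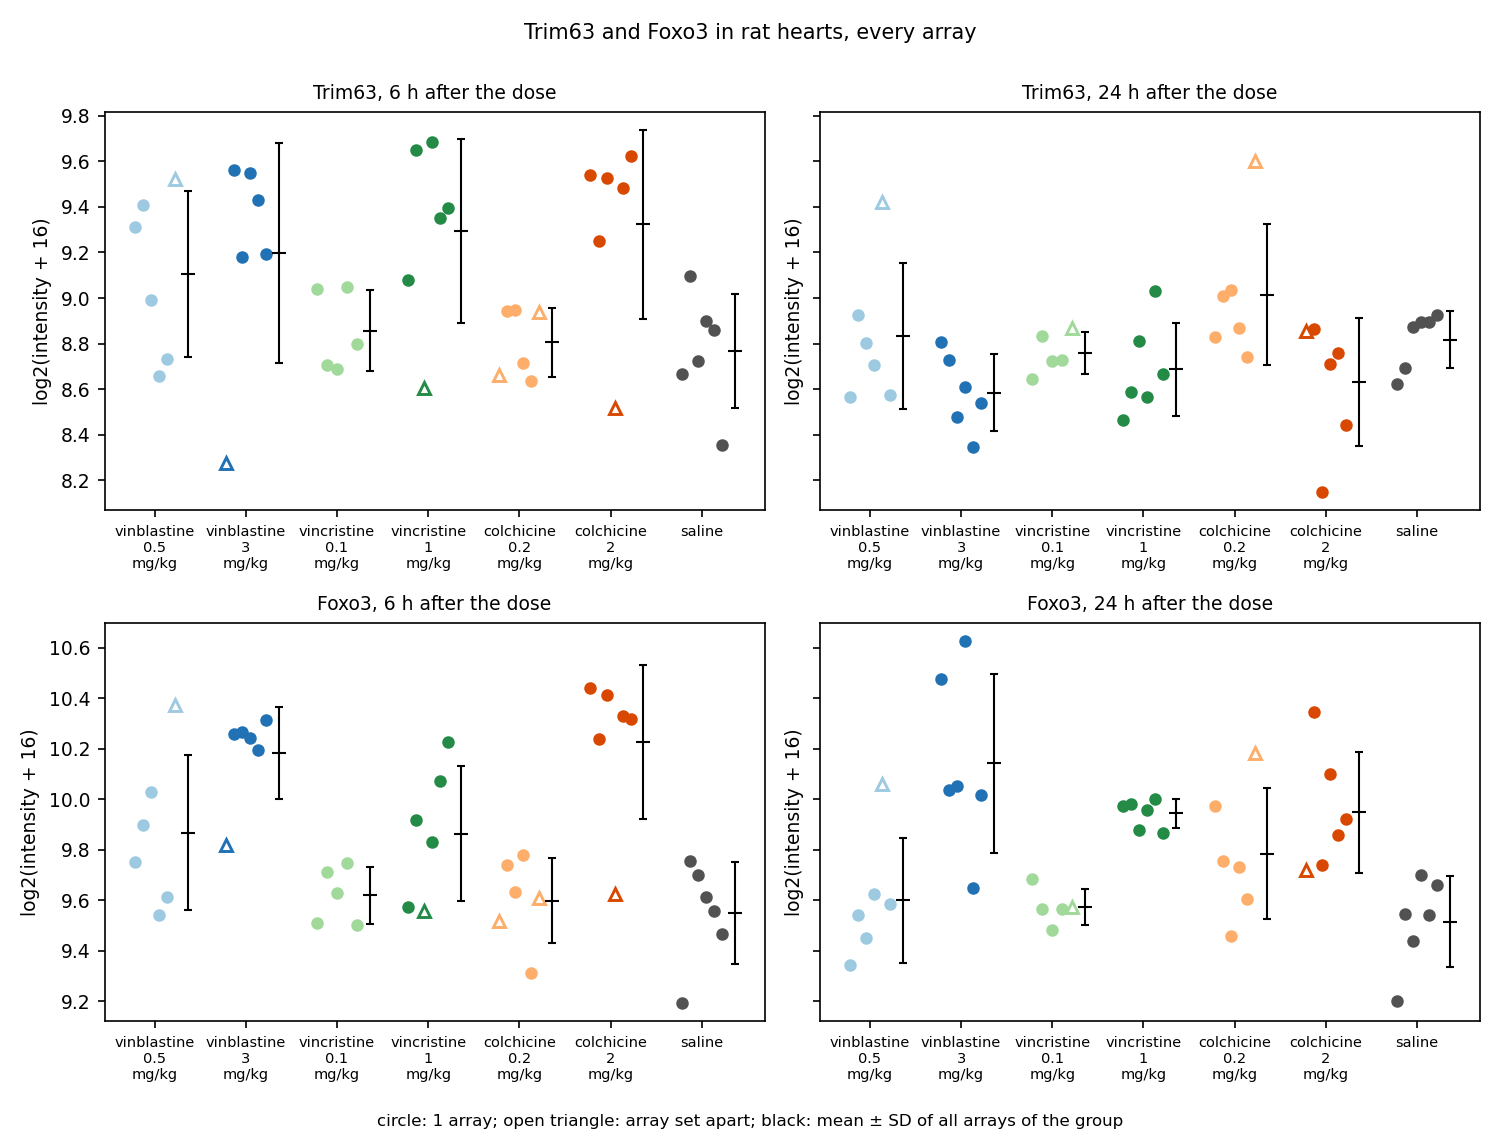
Trim63 (top) and Foxo3 (bottom) on each array as log2(intensity + 16), at 6 h (left) and 24 h (right), by group, with the symbols as for Otud1. Trim63 of the higher doses sits mostly above saline at 6 h and not at 24 h, and Foxo3 of the higher doses sits mostly above saline at both times.

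Foxo1 and Fbxo32 were not called in any of the 12 comparisons with saline. The log2 changes of Foxo1 ran from -0.19 to 0.27 (SE 0.19 or 0.20), and 0 of its 12 limma tests had an unadjusted p under 0.05. Its group means lay between 195 ± 35.2 (colchicine 0.2 mg/kg 24 h) and 269 ± 101 (vincristine 1 mg/kg 24 h, where 1 heart read 464), against 213 ± 42.7 in saline hearts at 24 h and 234 ± 61.4 at 6 h. Fbxo32 was dim: its probe set was above the filter on 80 of 82 arrays and above the median of its array on 17. Its changes ran from -0.21 to 0.05 (SE 0.08 each) with group means between 47.7 and 64.5, and 2 of 12 unadjusted p were under 0.05, both lower than saline at 24 h (vinblastine 0.5 and 3 mg/kg). The first of these had a 95% interval from -0.36 to -0.05. Over the other 72 arrays the changes of Foxo1 ran from -0.19 to 0.29 and those of Fbxo32 from -0.21 to 0.05, with none called. In saline hearts themselves none of the 6 genes differed at 24 h against 6 h (0.00883% of all genes called).

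**Figure D4:**
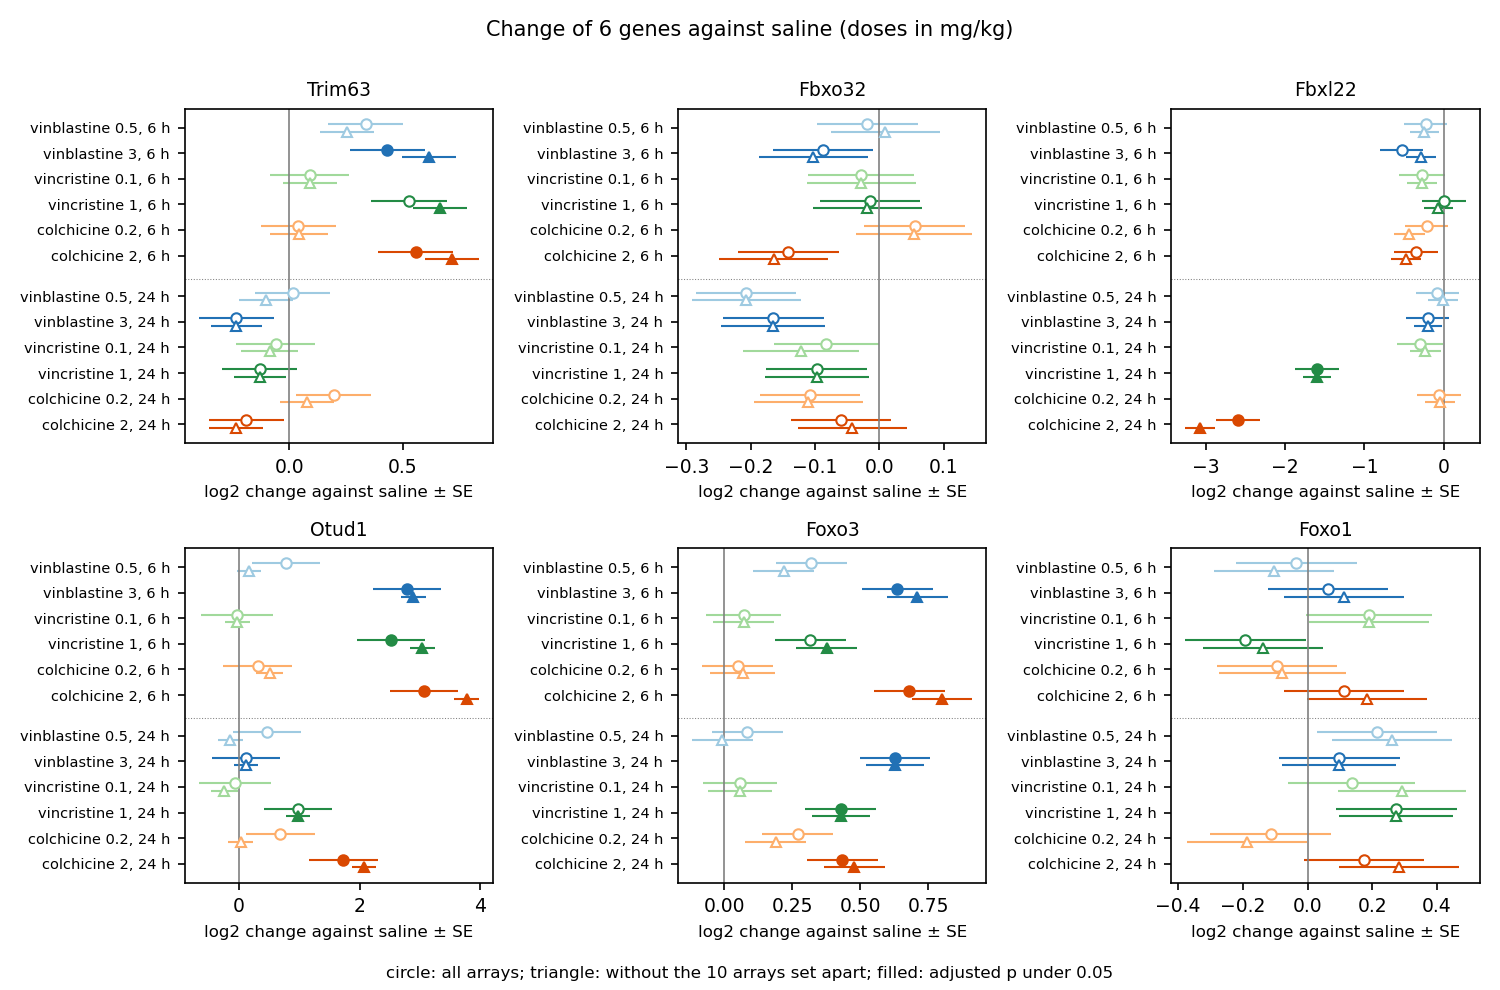
Log2 change against saline (horizontal axis) with its SE for each of the 6 genes and 12 comparisons; circles use all arrays, triangles leave out the 10 arrays set apart, and filled symbols passed adjusted p under 0.05. Filled symbols appear for Trim63 at 6 h, for Fbxl22 at 24 h and for Otud1 and Foxo3 at both times, at the higher doses only, and none for Fbxo32 or Foxo1.

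Across the 14 group means the genes most like Otud1 were Atf3 (r = 0.99), Hbegf (0.98) and Runx1 (0.98), and after subtraction of group means their r was 0.91, 0.87 and 0.80 over the 82 arrays and 0.60, 0.52 and 0.40 over the 72 arrays left without those set apart. Those most like Fbxl22 were Anks1a (0.98), Rhot2 (0.98) and Sh3kbp1 (0.97), with 0.77, 0.67 and 0.58 within groups over 82 arrays and 0.37, 0.29 and -0.03 over 72. Trim63 ran closest with Ddit3 (0.93), Hs3st5 (0.92) and Slc4a7 (0.92), and Foxo3 with Fgfr3 (0.96), Fam107a (0.96) and Spata13 (0.95). Within groups over the 72 arrays r was 0.02, 0.43 and 0.45 for the genes nearest Trim63 and 0.60, 0.71 and 0.51 for those nearest Foxo3. For Foxo1 the nearest were Pcnx2 (0.86), Nkain2 (0.84) and Adcy10 (0.83), and for Fbxo32 Slc25a1 (0.89), Tspan12 (0.87) and Tspan18 (0.84), with r of 0.37 or less within groups for these 6 (82 arrays). Over the 72 arrays the highest r within groups among these 6 was 0.44, for Tspan18 with Fbxo32. Between Trim63 and Otud1 r was 0.71 over the group means, 0.68 over arrays within groups and 0.50 over the 72 arrays; between Otud1 and Foxo3 these were 0.75, 0.62 and 0.15. Between Trim63 and Fbxo32 it was -0.67 over the group means and -0.03 within groups. These are descriptions over samples that share groups and arrays.

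The other genes of the pathway came from lists written for this tissue, with results of these arrays known. Of 26 measured FoxO target genes 12 were higher and 1 lower at 6 h after vinblastine 3 mg/kg, 4 and 0 after vincristine 1 mg/kg, and 10 and 0 after colchicine 2 mg/kg. Among all genes 15.7%, 2.05% and 4.89% were higher and 7.67%, 1.25% and 4.37% lower. At 24 h the counts were 2 and 0, 12 and 3, and 12 and 5 in the same order, where 5.27%, 12% and 19.3% of all genes were higher and 4.28%, 18.4% and 25.3% lower. Without the arrays set apart 11 targets were higher and 0 lower at 6 h after vincristine 1 mg/kg, and 7 and 0 at 24 h after vinblastine 3 mg/kg. Of all 11324 genes 815 were then higher and 580 lower in the vincristine comparison, and 907 and 877 in the vinblastine comparison. Quantile normalization of all arrays gave 5 and 1 at 24 h after vinblastine 3 mg/kg, where 759 of all genes were higher and 577 lower. Pdk4, a kinase that holds back glucose oxidation, averaged 4331.9 ± 1511 at 24 h after vincristine 1 mg/kg and 4925 ± 1532 after colchicine 2 mg/kg, against 1080.3 ± 216 in saline hearts (SD, n = 6 each; log2 changes 1.93 ± 0.40 and 2.11 ± 0.40). Txnip, which binds thioredoxin, was higher by 1.41 ± 0.25 at 6 h after vinblastine 3 mg/kg and by 1.54 ± 0.25 at 24 h after vincristine 1 mg/kg. Mul1, a mitochondrial ligase, was lower at 24 h after colchicine 2 mg/kg (log2 change -0.63 ± 0.15). On the 72 remaining arrays the colchicine values were 2.35 for Pdk4 and -0.74 for Mul1, and that of Txnip after vinblastine was 1.35. The median log2 change of the list was between 0.23 and 0.44 in these 6 comparisons, beside medians of all genes between -0.0115 and 0.0111.

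Among 39 other ligases of muscle and heart 10 were higher and 4 lower at 6 h after vinblastine 3 mg/kg, 3 and 0 after vincristine 1 mg/kg and 6 and 1 after colchicine 2 mg/kg. The 24 h counts were 2 and 0, 5 and 4, and 8 and 11. The 11 of 39 lower after colchicine stand beside 25.3% of all genes, and the 10 higher at 6 h after vinblastine beside 15.7%. Trim54, the sister of Trim63 known as MuRF3, averaged 4372 ± 1178 at 24 h after colchicine 2 mg/kg, against 1674 ± 236 in saline hearts. Its log2 changes at 24 h were 1.11, 1.27 and 1.33 (SE 0.16 each) for vinblastine 3 mg/kg, vincristine 1 mg/kg and colchicine 2 mg/kg. Fbxw7, another substrate receptor, was lower at 24 h after colchicine 2 mg/kg (log2 change -1.09 ± 0.16). With the set-apart arrays left out, the colchicine values were 1.51 for Trim54 and -1.24 for Fbxw7. Of 51 other deubiquitinases 13 were higher and 1 lower at 6 h after vinblastine 3 mg/kg, 0 and 0 after vincristine 1 mg/kg and 2 and 1 after colchicine 2 mg/kg. Over the other 72 arrays the count at 6 h after vinblastine 3 mg/kg was 4 higher and 1 lower. Calls among all genes fell there too, to 10.3% higher and 5.52% lower from 15.7% and 7.67% with all arrays. At 24 h, with all arrays, 3 deubiquitinases were higher and 0 lower after vinblastine, 5 and 3 after vincristine, and 9 and 6 after colchicine. With quantile normalization these were 3 and 1, 11 and 3, and 15 and 6. Without that normalization 12% and 19.3% of all genes were higher at 24 h after vincristine and colchicine (1356 and 2182 of 11324). With quantile normalization 1845 and 2616 of the 11324 genes were higher. None of those named by size exceeded 1.01 (Usp18, 24 h after vinblastine 3 mg/kg). Upstream of FoxO, Akt1 and Akt2 were lower at 24 h after colchicine 2 mg/kg (log2 changes -0.58 ± 0.09 and -0.67 ± 0.10), and Fstl3, a binder of myostatin and activin, was higher by 2.46 ± 0.24. Among muscle substrates of the ligases Flnc, filamin C, was higher by 1.93 ± 0.29 in the same comparison. Without the arrays set apart these were -0.66, -0.77, 2.88 and 2.23 for Akt1, Akt2, Fstl3 and Flnc.

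The remaining lists are counted in the same way, beside the same shares of all genes (15.7% higher and 7.67% lower at 6 h after vinblastine 3 mg/kg, 2.05% and 1.25% after vincristine 1 mg/kg, 4.89% and 4.37% after colchicine 2 mg/kg, and at 24 h 5.27% and 4.28%, 12% and 18.4%, and 19.3% and 25.3%). Of 30 ubiquitin genes and E1 and E2 enzymes, which make, charge and carry ubiquitin, 10 were higher and 0 lower at 6 h after vinblastine 3 mg/kg, 1 and 0 after vincristine 1 mg/kg, and 5 and 0 after colchicine 2 mg/kg. The 24 h counts were 2 and 1, 5 and 6, and 8 and 6. Of 37 genes of autophagy and the lysosome, the other route of protein breakdown in muscle, 10 were higher and 0 lower at 6 h after vinblastine, 1 and 0 after vincristine, and 5 and 0 after colchicine. At 24 h they numbered 5 and 0, 7 and 10, and 9 and 10. Upstream of FoxO 11 of 28 genes were higher and 1 lower at 6 h after vinblastine, 1 and 0 after vincristine, and 6 and 0 after colchicine, and at 24 h 1 and 3, 5 and 2, and 8 and 8. Of 17 muscle substrates 4, 1 and 1 were higher and 0 lower at 6 h, and at 24 h the counts were 2 and 0, 3 and 4, and 3 and 5. Of 10 genes of the Skp1 and cullin core 2 were higher and 0 lower at 6 h after vinblastine, and 0 passed at 6 h after the other compounds and at 24 h after vinblastine. At 24 h 0 were higher and 2 lower after vincristine, and 2 and 4 after colchicine. The 2 core genes called at 6 h after vinblastine were 0 with quantile normalization, which also gave 2 higher and 1 lower after vincristine at 24 h. At 24 h the same setting gave 4 higher and 1 lower of the ubiquitin, E1 and E2 genes after vinblastine, and of the substrates 6 and 3 after vincristine and 5 and 4 after colchicine. Of all genes it then called 759 higher and 577 lower after vinblastine, 1845 and 1835 after vincristine, and 2616 and 2756 after colchicine. Leaving out the arrays set apart moved several 6 h counts: after vincristine 1 mg/kg to 4 and 0 of the ubiquitin, E1 and E2 genes, 6 and 0 of autophagy and lysosome, 7 and 1 upstream of FoxO and 7 and 1 of the other ligases. After colchicine 2 mg/kg it gave 11 and 3 upstream of FoxO, 10 and 4 of the other ligases and 6 and 4 of the deubiquitinases. The counts over all 11324 genes moved as well, to 815 higher and 580 lower after vincristine 1 mg/kg (232 and 142 with all arrays). After colchicine 2 mg/kg they moved to 1072 and 1117 (554 and 495 with all arrays).

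**Figure D5:**
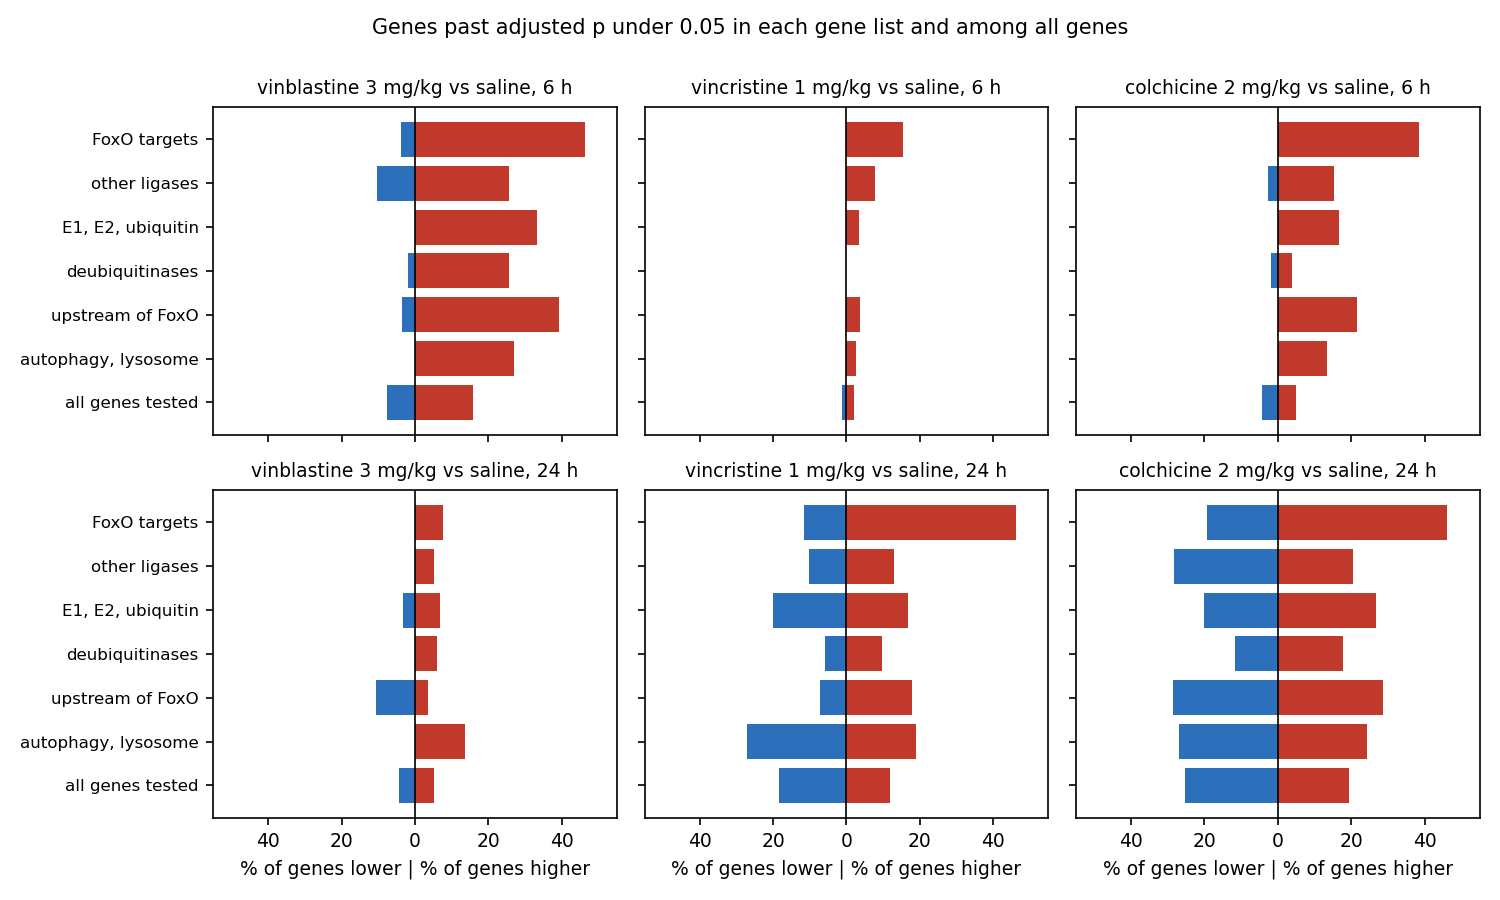
Percent of the genes of each list that were higher (red, right) or lower (blue, left) than saline past adjusted p under 0.05, in the 6 comparisons at the higher doses, with all 11324 genes tested in the bottom row. FoxO targets reach 12 of 26 higher at 6 h after vinblastine 3 mg/kg and at 24 h after vincristine 1 mg/kg and colchicine 2 mg/kg.

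Markers of other cells moved in the groups where these genes changed. Their counts stand beside those of all 11324 genes tested. At 6 h 1774 were higher and 868 lower after vinblastine 3 mg/kg, and 232 and 142 after vincristine 1 mg/kg. After colchicine 2 mg/kg these were 554 and 495. The 24 h counts of all genes were 597 and 485, 1356 and 2082, and 2182 and 2867 in the same order. Of 10 measured neutrophil markers 5 passed the filter (S100a8, S100a9, Camp, Itgam and Lcn2, the brightest), while Csf3r, Cxcr2, Mmp8, Mmp9 and Fcgr3a did not. Camp was above the filter on 10 of 82 arrays, S100a8 on 31, S100a9 on 70, and Itgam and Lcn2 on all. Camp, S100a8 and S100a9 can have passed through the arrays where they read high, so their rise is a description. The summed intensity of those 5 ran from 1460.3 to 8202 at 6 h after vinblastine 3 mg/kg, 368 to 1514 after vincristine 1 mg/kg and 364 to 1769.7 after colchicine 2 mg/kg, against 359.7 to 465 in saline hearts; 4, 1 and 3 of the 5 were higher. On the 72 remaining arrays the sums were 1460.3 to 2334, 539 to 1514 and 1477 to 1769.7. At 24 h the sums were 481 to 7499 after colchicine 2 mg/kg and 1235 to 2215 after vincristine 1 mg/kg, against 339 to 459.7 in saline hearts, with 3 of 5 higher in each (3378 to 7499 for colchicine without the array set apart). After vinblastine 3 mg/kg at 24 h the sums were 527 to 759 and 0 of 5 passed the threshold. Of 14 measured monocyte and macrophage markers 11 passed the filter, while Cx3cr1, Ccr2 and Adgre1 did not. Cd163 was above it on 39 of 82 arrays, and Lyz2 was the brightest, with a mean of 1663. The sum of these 11 at 24 h was 5672 to 8413 after vinblastine 3 mg/kg and 4819 to 6480.1 after vincristine 1 mg/kg, against 3241 to 3863 in saline hearts, with 7 of 11 higher in each, and 3059 to 5033 after colchicine 2 mg/kg with 4 higher. Summed cardiomyocyte markers at 24 h overlapped between colchicine 2 mg/kg (229805 to 284397), vincristine 1 mg/kg (235381 to 260399) and saline hearts (241957 to 282319), although 5 and 4 of the 14 were lower and Csrp3 was higher in both. Summed fibroblast markers (12 tested) at 24 h after colchicine 2 mg/kg were 23578 to 34271, below all saline hearts (34586 to 43853), with 3 higher and 8 lower. Summed red cell markers (4 tested) at 24 h were 7883 to 11335 after vinblastine 3 mg/kg and 6432 to 10676 after vincristine 1 mg/kg, below all saline hearts (12159 to 14204), with 3 of 4 lower in each. The red cell sum was mostly Hbb, with a mean over all arrays of 11380, beside 394 for Alas2, 187 for Slc4a1 and 87.2 for Ahsp. Summed adipocyte markers (6 tested) lay above all saline hearts at 24 h after vincristine 1 mg/kg (7921 to 9911, against 5805 to 6889 in saline hearts) and at 6 h after vinblastine 3 mg/kg (7964 to 9963, against 4578 to 7874 in saline hearts), with 3 and 2 higher and 1 lower in each. This sum was mostly Fabp4 and Cidea, with means over all arrays of 5104 and 1985, beside 114 for Pparg. Adipoq, Plin1 and Cfd averaged 36.8, 39.1 and 45.8, and Lep, Ucp1 and Cidec did not pass the filter. Adipoq was above the filter on 13 of 82 arrays, Plin1 on 20 and Cfd on 48. These can have passed through the arrays where they read high, so the adipocyte counts are a description. Summed endothelial markers (12 tested) at 24 h after colchicine 2 mg/kg were 9579 to 13578, and 11285 to 13578 without the array set apart, against 8670 to 10874 in saline hearts, with 7 higher and 1 lower. Sums of lymphocyte, smooth muscle and skeletal muscle markers overlapped saline hearts after the higher doses at both times. The part of these cells in the changes of the 6 genes was not tested.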

How the data were processed

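RNA of 82 rat hearts was measured on Affymetrix arrays, 1 per rat; per the labels' protocols it was extracted with a Qiagen kit and made into biotinylated cRNA by Affymetrix's IVT express labelling. The deposited values are linear intensities of 31099 probe sets, already scaled by the authors as far as the nearly equal array medians show; the summarisation method and build are not given in the sources used here. Groups followed the labels. Probe sets were named through the platform annotation: 20832 had 1 symbol, 436 several (not used) and 9774 none here. limma 3.58.1 in R 4.3.3 was run on log2(intensity + 16) with 14 group means (68 residual degrees of freedom) and 25 comparisons: drug against saline, higher against lower dose, 24 h change minus 6 h change, and saline 24 h against 6 h. On simulated data for vinblastine 3 mg/kg at 6 h (11324 genes) 98 of 100 genes changed by 1 log2 unit and 100 of 100 changed by 2 were called, with 11 false calls. The simulation used independent normal errors of each gene's own spread, genes drawn at random and no arrays far from their group. Its rates therefore do not hold for a gene as variable as Otud1. The members and gene lists were chosen with earlier results of these data known. All members were named in every comparison; of each list up to 2 rises and 2 falls by size per higher dose could be named, and for each member the 3 genes with the highest r. Replicate numbers were not taken to pair rats: the median r of deviations was 0.018 over 521 pairs that share a number, against -0.0031 over 2600 others, and every pair was over 0.1 in 0 of 12 comparisons with saline (at most 4 of 5 pairs). The labels number animals separately, so p-values measure the spread between rats, pooled for each gene over all 14 groups. They do not measure the spread of the compared groups alone. Promoters came from RefSeq (GRCr8). Alternatives tried: a smaller and a larger pseudocount, no filter and a stricter one, quantile normalization, other choices of probe set, fits of the compared groups only, array weights, the replicate block, and leaving out arrays.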

Additional observations from a re-analysis of the deposited data

Results flagged for a closer look

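In groups of 5 or 6 arrays the highest or lowest array stood apart by Dixon's ratio in 15 of 84 tests, where chance gives about 1 in 20; in 14 of the 15 the array was one of the 10 set apart on the whole profile. In Otud1 these were high arrays of the lower doses (6844 in vinblastine 0.5 mg/kg 6 h replicate 6, 5627 in vinblastine 0.5 mg/kg 24 h replicate 5 and 7642 in colchicine 0.2 mg/kg 24 h replicate 6) and low arrays of colchicine 2 mg/kg (325 in replicate 4 at 6 h and 492 in replicate 1 at 24 h). In Trim63 they were 294 in vinblastine 3 mg/kg 6 h replicate 1, 762 in colchicine 0.2 mg/kg 24 h replicate 6 and 350.0 in colchicine 2 mg/kg 6 h replicate 4. In Fbxl22 they were 338 in vinblastine 3 mg/kg 6 h replicate 1 and 1238 in colchicine 2 mg/kg 24 h replicate 1. In Foxo3 they were 888 in vinblastine 3 mg/kg 6 h replicate 1 and 773 in colchicine 2 mg/kg 6 h replicate 4. In Foxo1 they were 353 in vinblastine 0.5 mg/kg 24 h replicate 1, which is not an array set apart, 145 in vincristine 0.1 mg/kg 24 h replicate 5 and 158 in colchicine 2 mg/kg 24 h replicate 1.

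The change against saline differed between 24 h and 6 h, by limma's test of the difference itself, for 4 values. Fbxl22 differed by -1.60 for vincristine 1 mg/kg and by -2.25 for colchicine 2 mg/kg, Otud1 by -2.67 for vinblastine 3 mg/kg and Trim63 by -0.74 for colchicine 2 mg/kg (log2, 24 h change minus 6 h change). The value for Otud1 is a description, since the rise at 6 h was known when the genes were listed; it stayed past the threshold in 10 of 24 fits that left out 1 array. The Trim63 value did so in 23 of 24 and both Fbxl22 values in 24 of 24.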

How the results depend on the processing

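The counts of the 6 genes called moved with these settings. They describe calls and are not read as results about the 6 genes, since calls among all genes can move as well. For settings other than leaving out the arrays set apart, the counts over all genes are not given beside them. The stricter filter left the dim Fbxo32 untested. Array weights gave 3 for colchicine 2 against 0.2 mg/kg at 24 h (1 in the values reported), and 2 for vinblastine 3 against 0.5 mg/kg at 6 h and for the 24 h minus 6 h differences of vinblastine 3 mg/kg and vincristine 1 mg/kg (1 each). Leaving out the arrays set apart gave 5 for colchicine 2 against 0.2 mg/kg at 24 h, 3 for vincristine 1 mg/kg at 6 h and its time difference, and 2 for vincristine 1 against 0.1 mg/kg and vinblastine 3 against 0.5 mg/kg at 6 h and the vinblastine 3 mg/kg time difference (1 each). Calls among all 11324 genes rose there too, to 5542 from 4692 for colchicine 2 against 0.2 mg/kg at 24 h. For vincristine 1 mg/kg at 6 h they rose to 1395 from 374, and for its time difference to 1790 from 1390. Between doses at 6 h they rose to 1275 from 318 for vincristine and to 1094 from 965 for vinblastine. The vinblastine 3 mg/kg time difference had 923 against 502. Leaving out the arrays whose description ends in _2, or the stricter filter, gave 2 for colchicine 2 against 0.2 mg/kg at 24 h, vincristine 1 mg/kg at 6 h and its time difference; leaving out those arrays gave 0 for vinblastine 3 against 0.5 mg/kg at 6 h. Fitting only the compared groups gave 0 for vinblastine 3 against 0.5 mg/kg at 6 h and at 24 h and 2 for the vincristine time difference, no filter gave 0 for the vinblastine time difference, and the mean of probe sets gave 1 for vincristine 1 against 0.1 mg/kg at 24 h, against 2. With the replicate number as a block the vincristine time difference had 2 calls against 1, and no other count moved by over 1.5 times. With 1 array left out, counts ran from 1 to 3 for colchicine 2 against 0.2 mg/kg at 24 h and the colchicine time difference, 0 to 2 for the vinblastine time difference, vinblastine 3 against 0.5 mg/kg at 6 h, vincristine 1 mg/kg at 6 h and vincristine 1 against 0.1 mg/kg at 6 h, and 1 to 2 for the vincristine time difference and vincristine 1 against 0.1 mg/kg at 24 h. None of the 26 called values changed direction under the settings run. Otud1, not called, changed sign at 24 h after vinblastine 0.5 mg/kg without the arrays set apart (-0.14; -0.14 to 0.71 with 1 array left out), and after vincristine 0.1 mg/kg with the replicate block (0.033 at 24 h, 0.076 at 6 h), without the arrays ending in _2 (0.0054 at 6 h) and with 1 array left out (-0.24 to 0.018 at 24 h and -0.13 to 0.070 at 6 h). The causes were not tested. Quantile normalization took the share of calls that were higher to 52.8% from 67.1% at 6 h after vinblastine 3 mg/kg, to 47.7% from 62% at 6 h and to 50.1% from 39.4% at 24 h after vincristine 1 mg/kg.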
